A study of Mus musculus with 23 samples.

Results

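Apolipoproteins are the protein parts of plasma lipoproteins, and 10 of their genes were followed in the livers of mice that expressed oncogenic Braf in hepatocytes. The genes were Apoa1, Apoa2, Apoa4, Apoa5, Apob, Apoc1, Apoc2, Apoc3, Apoe and Apom, taken by symbol from the 27179 genes of the count table. They were chosen with earlier results of these data known, and all 10 had reads in every mouse. RNA from liver tissue without visible tumors was sequenced in 15 female mice. The 6 Ctrl mice carried Alb-Cre, floxed Trp53 alleles on both chromosomes (Trp53 flx/flx), 1 floxed Icmt allele (Icmt flx/+) and wild-type Braf. The 6 ABpIF/+ mice carried the same Alb-Cre, Trp53 flx/flx and Icmt flx/+ alleles together with BrafCA/+, which gives BrafV600E after recombination. The 3 ABpIF/F mice differed from ABpIF/+ in that both Icmt alleles were floxed (Icmt flx/flx), and these 3 were all that were obtained. Thus every mouse, controls included, had Alb-Cre, a liver-specific deletion of Trp53 and at least 1 floxed Icmt allele, and the Cre was driven by the albumin promoter, which is active in hepatocytes. Ages are not given in the labels. The genotype label of both Braf groups reads BRAF +/+, whereas the design text of the series gives BrafCA/+ for them.

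Lipoproteins carry cholesterol and triglycerides through the blood. The liver secretes very-low-density lipoprotein (VLDL), in which Apob is the structural protein of each particle, and it makes most of the Apoa1 that takes up cholesterol from cells to form high-density lipoprotein (HDL). Smaller exchangeable apolipoproteins move between particles and set how fast triglyceride is removed: Apoc2 is the cofactor of lipoprotein lipase, Apoc3 inhibits triglyceride removal, Apoa5 promotes it, and Apoe is the ligand for uptake by hepatic receptors. ICMT, the product of Icmt, methylates the C-terminal cysteine of prenylated proteins such as RAS.

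The 15 libraries were of similar depth, with 24742910 to 30304178 gene counts in Ctrl, 26185170 to 32262649 in ABpIF/+ and 29127390 to 30651425 in ABpIF/F. Levels are given as counts-per-million (CPM) scaled by TMM factors, which correct for library composition. Icmt, the deleted gene, was at 15.7, 16.6 and 15.2 CPM in the ABpIF/F mice, below the 27.8 to 34.7 CPM of Ctrl and the 27.8 to 37.4 CPM of ABpIF/+ (ABpIF/F against Ctrl, log2 fold change -0.96 ± 0.125 SE, edgeR adjusted p = 8.51e-06). The tissue label was met by the hepatocyte markers, since all 10 were detected and their summed level was 117635 to 157720 CPM in Ctrl, 207665 to 281714 CPM in ABpIF/+ and 165968 to 262010 CPM in ABpIF/F. Alb and Trf made up most of these sums, and the median log2 fold change of the 10 markers was 0.68 in ABpIF/+ (5 higher, 1 lower) and -0.28 in ABpIF/F (3 higher, 1 lower). Of 8 enterocyte markers, which were read because the intestine also makes Apoa1, Apoa4 and Apob, 7 in Ctrl, 6 in ABpIF/+ and 5 in ABpIF/F stayed under 1 CPM in every mouse, the rest being mainly Fabp2. Cholangiocyte markers (8 genes, all detected) summed to 50.3 to 88.6 CPM in Ctrl, 54.8 to 176 CPM in ABpIF/+ and 237 to 1196 CPM in ABpIF/F, where Spp1 alone gave 660 CPM of a mean of 749 CPM, and the median log2 fold change of the list was -0.55 in ABpIF/+ and 1.53 in ABpIF/F. Macrophage markers (14 genes, all detected) summed to 442 to 613, 187 to 330 and 381 to 939 CPM in the same order, and stellate cell and fibroblast markers (8 genes, all detected) to 172 to 239, 40.1 to 86.6 and 156 to 269.5 CPM. These lists move with the groups compared, and their part in the member values was not tested. In bulk liver RNA, fewer cells of a type cannot be told apart from less RNA per cell.

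3 properties set libraries apart before any comparison. The first was the strain label: 5 of the 6 Ctrl mice carry another strain label than Ctrl replicate 2, whose label is that of all 9 mice with BrafV600E, so that strain label and genotype are largely shared. Libraries also differed in how CPM varied with gene length. The slope of log2 CPM, taken relative to the group mean, per doubling of exonic length over 9414 genes was -0.103 in Ctrl replicate 1 and -0.22 in Ctrl replicate 2, but 0.0545 to 0.11 in the other 4 Ctrl libraries, -0.0956 to 0.0889 in ABpIF/+ and -0.0403 to 0.0756 in ABpIF/F. A last property was a clock score, the mean standardized level of clock genes of the Per and Dbp side minus that of the others, which follow the time of day. It was -2.38 in Ctrl replicate 1 against 0.43 to 1.27 in the other Ctrl mice and 0.08 to 1.12 in ABpIF/+, and it was -0.81, -3.33 and -1.52 in the ABpIF/F mice. Results that change without these libraries are given with and without them.

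The 10 genes lie at 5 places in the genome (build GRCm38, the NCBI name of mm10). Apoa1 (chr9:46228580-46230466, plus strand), Apoc3 (chr9:46232933-46235636, minus strand), Apoa4 (chr9:46240696-46243459, plus strand) and Apoa5 (chr9:46268633-46271919, plus strand) form a cluster on chromosome 9. Apoc2 (chr7:19671579-19677941), Apoc1 (chr7:19689481-19692660) and Apoe (chr7:19696109-19699188) follow each other on the minus strand of chromosome 7. Apoa2 (chr1:171225054-171226379, plus strand), Apob (chr12:7977648-8016835, plus strand) and Apom (chr17:35128997-35132050, minus strand) stand alone. In the count table these are the Entrez genes 11806 (Apoa1), 11807 (Apoa2), 11808 (Apoa4), 66113 (Apoa5), 238055 (Apob), 11812 (Apoc1), 11813 (Apoc2), 11814 (Apoc3), 11816 (Apoe) and 55938 (Apom). Annotated antisense transcripts overlap Apoa4 (Gm10680 and Gm47528) and Apoa5 (Gm47544), and Gm44805 overlaps Apoc2 on the same strand. The strand setting of the counting is not given in the sources used here, so reads of Apoa4, Apoa5 and Apoc2 are uncertain to the extent that these transcripts share them.

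4 promoters are printed because their genes carry the results below, Apoa1, Apoa4 and Apoa5 lying in 1 cluster. Each runs 5′ to 3′ on the strand of its gene and stops 1 base before the annotated start, and bases in exons of coding genes were trimmed off for printing. Capitals mark letters that matched a searched motif. The windows are chr9:46228380-46228579 (plus) for Apoa1, chr9:46240594-46240695 (plus) for Apoa4, chr9:46268383-46268632 (plus) for Apoa5 and chr7:19677942-19678082 (minus) for Apoc2, from RefSeq on GRCm38.p6.
Apoa1 promoter: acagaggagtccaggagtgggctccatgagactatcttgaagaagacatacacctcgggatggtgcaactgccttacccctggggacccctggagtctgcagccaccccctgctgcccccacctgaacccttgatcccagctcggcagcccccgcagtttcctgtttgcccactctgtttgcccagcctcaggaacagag
Apoa4 promoter: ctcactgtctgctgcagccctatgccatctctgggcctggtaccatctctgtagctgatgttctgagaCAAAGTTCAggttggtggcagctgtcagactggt
Apoa5 promoter: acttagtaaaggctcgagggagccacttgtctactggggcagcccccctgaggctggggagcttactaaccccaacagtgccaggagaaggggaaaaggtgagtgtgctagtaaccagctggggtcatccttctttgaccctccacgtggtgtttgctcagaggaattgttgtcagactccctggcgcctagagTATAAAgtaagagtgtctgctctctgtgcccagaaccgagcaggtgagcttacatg
Apoc2 promoter: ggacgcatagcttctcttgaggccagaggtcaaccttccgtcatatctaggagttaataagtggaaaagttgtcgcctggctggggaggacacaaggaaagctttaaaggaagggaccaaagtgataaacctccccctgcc

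6 motif spellings were searched on both strands of the full, untrimmed 250 bases before the RefSeq start of each gene: CAAAGTCCA and CAAAGTTCA for HNF4A, GTTAATNAT for HNF1, TGTTTAC for FOXA, TTGCGCAA for C/EBP and TATAAA for the TATA box. The RefSeq promoter table held 8 of the 10 genes, all but Apoc1 and Apoc3. The Apoa4 window held CAAAGTTCA 34 to 26 bases before the start, a spelling present in 0.335% of 32851 promoter windows of that length. The Apoa5 window held TATAAA 56 to 51 bases before the start, as did 12.4% of windows somewhere in their length. TATAAA also lay in the Apoa2 and Apob windows, and the Apoa2 window held TGTTTAC, found in 3.17% of windows. CAAAGTCCA (0.384% of windows), GTTAATNAT (0.737%) and TTGCGCAA (0.164%) had no match among the 8 genes. No spelling matched in the 250 bases of Apoa1, Apoc2, Apoe and Apom, which says only that these letters are not there.

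Levels of different genes were compared per kilobase of annotated exon. In Ctrl liver Apoa2, an HDL protein, was highest at 10220 ± 3692 CPM per kb (SD, n = 6), ahead of Apoe at 8071 ± 1970, and their ranges overlapped. Apoa1 came next at 4683 ± 1233 CPM per kb, with no mouse inside the Apoe range, followed by Apoc1 at 1903 and Apoc3 at 1680, whose ranges overlapped. Apoa5 (518), Apob (378), Apom (216) and Apoc2 (168) formed a run in which each range overlapped that of the next, and Apoa4 was lowest at 46.7 CPM per kb. In ABpIF/+ the order was led by Apoa1 at 21710 ± 3672 CPM per kb (SD, n = 6), above Apoe at 9729 and Apoa2 at 6344, with no overlap between these ranges. The same 3 genes led in ABpIF/F in the same order, at 14900 ± 2641 (SD, n = 3), 7688 and 4597 CPM per kb, where the ranges of Apoe and Apoa2 overlapped. Apoc2 was the lowest gene but Apoa4 in Ctrl, and stood above Apom in ABpIF/+ (734 against 447 CPM per kb, ranges overlapping) and in ABpIF/F, where their ranges did not overlap. Apoa5 was sixth in Ctrl and in ABpIF/+ and ninth in ABpIF/F at 284 CPM per kb. Apoa4 remained lowest in all 3 groups, at 133 CPM per kb in ABpIF/+ and 145 in ABpIF/F.

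**Figure D1:**
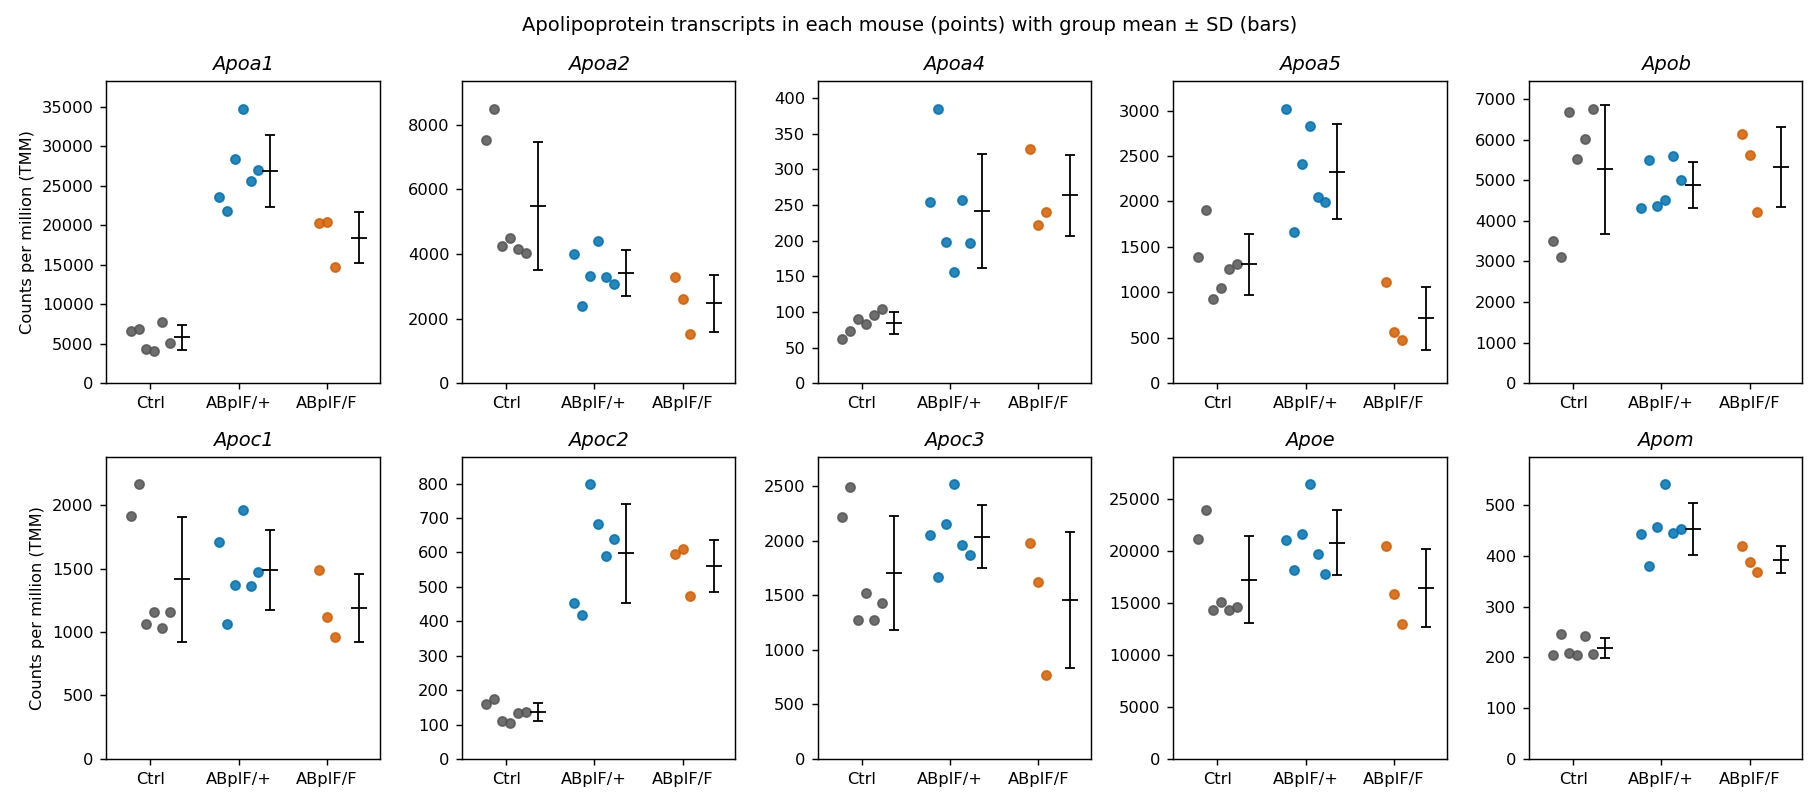
TMM-scaled CPM of the 10 apolipoprotein genes in each of the 15 mice, with the group mean. Apoa1, Apoa4, Apoc2 and Apom in both Braf groups lie above all 6 Ctrl mice, and Apoa5 in the 3 ABpIF/F mice (477 to 1112 CPM) lies below all 6 ABpIF/+ mice (1668 to 3023 CPM).

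The first comparison, ABpIF/+ against Ctrl, asked what hepatic BrafV600E did on a background of Trp53 deletion and 1 floxed Icmt allele. Apoa1, Apoc2, Apoa4, Apom and Apoa5 were higher and none of the 10 genes was lower at an edgeR adjusted p under 0.01, the threshold used throughout. Over the 20380 genes with a read, 12.3% were higher and 12.2% lower by the same rule. With libraries scaled by total counts the split was 4 higher and 1 lower, Apoa5 losing and Apoa2 gaining a call, and with the offset for gene length described below it was 5 higher and 1 lower. With a 2-fold change required as well, 4 of the 10 were higher (all but Apoa5) and 0 lower, against 6.26% and 7.13% of all genes. In 4 genes no ABpIF/+ mouse overlapped a Ctrl mouse. The share of all genes without overlap was not taken, so this count has no background. The median log2 fold change was 0.55 over the 10 genes and 0 over all genes with a read. Apolipoprotein genes are abundant, and among the 1221 genes that averaged 100 CPM or more 20.3% were higher and 27.5% lower. Without Ctrl replicates 1 and 2 the counts were 5 and, with the 2-fold limit, 5, and against Ctrl replicate 2 alone only Apoa1 and Apoc2 passed.

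The second comparison, ABpIF/F against Ctrl, asked the same with both Icmt alleles floxed, and it used the same 6 Ctrl mice. Apoa1, Apoc2, Apoa4 and Apom were higher and Apoa2 was lower, where 8.22% of genes were higher and 6.37% lower. With the 2-fold limit 3 genes were higher and 1 lower, against 6.06% and 3.17% of all genes. 5 genes had no overlap between groups, again without a share over all genes beside it. The median log2 fold change was -0.03 over the 10 genes and 0.09 over all genes. Among the 1221 abundant genes 7.21% were higher and 31.4% lower. Without Ctrl replicates 1 and 2 the counts were 4 and, with the 2-fold limit, 3, and against Ctrl replicate 2 alone only Apoa2 passed (-1.81, edgeR adjusted p = 0.00763).

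The last comparison, ABpIF/+ against ABpIF/F, asked what the second floxed Icmt allele changed in mice with BrafV600E. Only Apoa5 of the 10 passed the threshold, higher in ABpIF/+ by more than 2-fold, and 0 genes were lower. Over all genes 5.60% were higher and 9.00% lower, and with the 2-fold limit 2.35% and 7.32%. Apoa1 and Apoa5 were the 2 genes without overlap between groups, and here too the share over all genes was not taken. The median log2 fold change was 0.33 over the 10 genes and -0.05 over all genes. Among the 1221 abundant genes 22.5% were higher and 5.24% lower with a median of 0.23, beside 1 higher, 0 lower and a median of 0.33 among the 10.

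**Figure D2:**
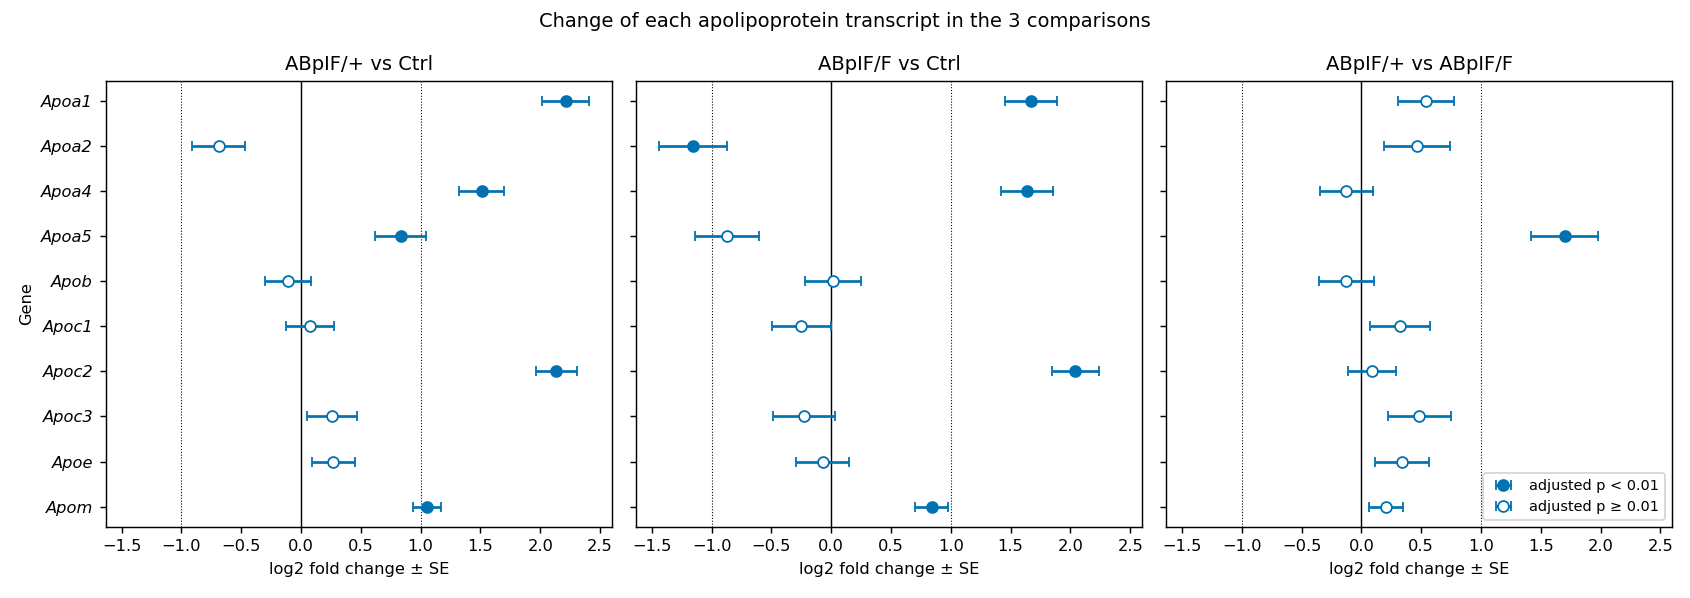
Log2 fold changes with SE from the edgeR fit for the 10 genes in the 3 comparisons. Apoa1, Apoc2, Apoa4 and Apom lie right of 0 against Ctrl in both Braf groups, while Apoa5 is at 0.83 for ABpIF/+, -0.87 for ABpIF/F and 1.70 between them.

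Among the HDL proteins Apoa1 rose in both Braf groups. Apoa1, the main protein of HDL and the activator of LCAT, ranged from 4019 to 7800.2 CPM in Ctrl with a median of 5879.9. In ABpIF/+ it ranged from 21736 to 34754 CPM with a median of 26289.9, and in ABpIF/F it was at 20211, 20380.1 and 14643 CPM. The lowest mouse with BrafV600E was therefore above the highest Ctrl mouse. Apoa1 was 4.64-fold higher in ABpIF/+ than in Ctrl (log2 fold change 2.21 ± 0.195 SE, edgeR adjusted p = 1.36e-08) and 3.18-fold higher in ABpIF/F (1.67 ± 0.22, adjusted p = 9.37e-06). The ABpIF/+ and ABpIF/F mice did not overlap, but the difference of 0.54 ± 0.234 did not pass the threshold (edgeR adjusted p = 0.123). Against Ctrl replicate 2 alone, the only control with their strain label, the ABpIF/+ call held at 1.97 (edgeR adjusted p = 0.00772) and the ABpIF/F value of 1.39 did not pass (adjusted p = 0.0576).

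Apoa2, the next HDL protein in abundance, went the other way in ABpIF/F. It ranged from 4029 to 8503 CPM in Ctrl with a median of 4367, from 2393 to 4389 CPM in ABpIF/+ with a median of 3292, and was at 3278, 2594 and 1533 CPM in ABpIF/F. All 3 ABpIF/F mice were below all Ctrl mice, and Ctrl replicates 1 and 2 (7515 and 8503 CPM) stood above the other 4 Ctrl mice (4029 to 4497 CPM). Apoa2 fell by 1.15 ± 0.286 on the log2 scale in ABpIF/F (edgeR adjusted p = 0.00586), a 2.22-fold lower level. Without Ctrl replicates 1 and 2 the value was -0.78 and the call was lost (edgeR adjusted p = 0.0245), as it was without Ctrl replicate 1 (-1.04, 0.012), Ctrl replicate 2 (-0.99, 0.0115), ABpIF/F replicate 2 (-1.19, 0.0237) or ABpIF/F replicate 3 (-0.90, 0.0568), and in a fit of these 2 groups only (-1.16, 0.0233). In ABpIF/+ the value was -0.69 ± 0.223 with overlapping groups (edgeR adjusted p = 0.0245), and -0.31 without Ctrl replicates 1 and 2 (adjusted p = 0.303). The ABpIF/+ value passed with total-count scaling (-0.87, edgeR adjusted p = 0.00153) and in DESeq2 (-0.70, adjusted p = 0.00623).

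Apom, which carries sphingosine-1-phosphate in HDL, rose in both Braf groups. It varied little among Ctrl mice, from 205 to 246 CPM with a median of 207. It ranged from 381 to 541 CPM in ABpIF/+ with a median of 448 and was at 420.1, 388 and 368 CPM in ABpIF/F, so that every mouse with BrafV600E was above every Ctrl mouse. The difference from Ctrl was 2.07-fold in ABpIF/+ (log2 fold change 1.05 ± 0.116 SE, edgeR adjusted p = 3.62e-07) and 1.79-fold in ABpIF/F (0.84 ± 0.137, adjusted p = 1.12e-04). Between ABpIF/+ and ABpIF/F it was 0.21 ± 0.142 (edgeR adjusted p = 0.402). Without ABpIF/+ replicate 4 the ABpIF/+ value was 0.99, just under the 2-fold limit, as were those with total-count scaling (0.87) and with the length offset (0.93), and against Ctrl replicate 2 alone neither value passed (0.88, edgeR adjusted p = 0.048, and 0.64, adjusted p = 0.205).

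Apob, the structural protein of VLDL, did not pass in any comparison. Its level ranged from 3108 to 6765 CPM in Ctrl (median 5772) and from 4324 to 5586 CPM in ABpIF/+ (median 4753), and was 6125, 5624 and 4224 CPM in ABpIF/F. The Ctrl range covered every mouse with BrafV600E. Log2 fold changes were -0.11 ± 0.19 in ABpIF/+ (edgeR adjusted p = 0.92), 0.02 ± 0.232 in ABpIF/F (adjusted p = 1) and -0.13 ± 0.231 between them (adjusted p = 0.977). Apob has the longest exons of the 10 genes, 13934 bp against 537 bp for Apoa2, and Ctrl replicates 1 and 2, whose libraries held fewer reads of long genes, had its lowest Ctrl levels (3508 and 3108 CPM). Without these 2 libraries the ABpIF/+ value was -0.36 (edgeR adjusted p = 0.107) and the ABpIF/F value -0.23.

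The triglyceride regulators parted. Apoc2, the cofactor that lipoprotein lipase needs, ranged from 103 to 174 CPM in Ctrl (median 135) and from 419 to 798 CPM in ABpIF/+ (median 615), and was at 596, 611 and 475 CPM in ABpIF/F. All 9 mice with BrafV600E were above all Ctrl mice. It was 4.38-fold higher in ABpIF/+ (log2 fold change 2.13 ± 0.171 SE, edgeR adjusted p = 3.50e-09) and 4.11-fold higher in ABpIF/F (2.04 ± 0.194, adjusted p = 1.12e-07), with 0.09 ± 0.202 between the Braf groups (adjusted p = 1). Against Ctrl replicate 2 alone the values were 1.78 (edgeR adjusted p = 0.00512) and 1.65 (adjusted p = 0.0114, not past the threshold).

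Apoc1 and Apoc3, which slow triglyceride removal from plasma, did not pass in any comparison. Apoc1 ranged from 1029.6 to 2165 CPM in Ctrl (median 1158) and from 1059 to 1961 CPM in ABpIF/+ (median 1420.5), and was 1490.1, 1116 and 964 CPM in ABpIF/F. Apoc3 ranged from 1277 to 2495 CPM in Ctrl (median 1477) and from 1671 to 2519 CPM in ABpIF/+ (median 2011), and was 1976, 1625 and 767 CPM in ABpIF/F. In both genes the highest Ctrl values came from replicates 1 and 2, and the groups overlapped. Apoc1 differed from Ctrl by 0.07 ± 0.2 in ABpIF/+ (edgeR adjusted p = 1) and -0.25 ± 0.247 in ABpIF/F (adjusted p = 0.666). Apoc3 differed by 0.26 ± 0.21 (edgeR adjusted p = 0.479) and -0.23 ± 0.259 (adjusted p = 0.742), and by 0.57 in ABpIF/+ without Ctrl replicates 1 and 2 (adjusted p = 0.0413, and 0.00212 when ABpIF/F replicate 3 was left out as well). Between ABpIF/+ and ABpIF/F the values were 0.32 ± 0.248 for Apoc1 (edgeR adjusted p = 0.477) and 0.49 ± 0.262 for Apoc3 (adjusted p = 0.244).

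Apoa4, an apolipoprotein of triglyceride-rich particles and HDL, was the least abundant of the 10 and rose in both Braf groups. It ranged from 62.3 to 104 CPM in Ctrl (median 86.7) and from 157 to 385 CPM in ABpIF/+ (median 226), and was 328, 222 and 241 CPM in ABpIF/F. No mouse with BrafV600E overlapped Ctrl. It was 2.85-fold higher in ABpIF/+ (log2 fold change 1.51 ± 0.186 SE, edgeR adjusted p = 1.90e-06) and 3.11-fold higher in ABpIF/F (1.64 ± 0.215, adjusted p = 1.03e-05), and the Braf groups differed by -0.13 ± 0.222 (adjusted p = 0.952). Against Ctrl replicate 2 alone the values were 1.71 (edgeR adjusted p = 0.0186) and 1.81 (adjusted p = 0.019), neither past the threshold.

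Apoa5, which promotes lipase action on triglyceride-rich particles, was the gene in which the Braf groups parted. It ranged from 931 to 1903 CPM in Ctrl (median 1284) and from 1668 to 3023 CPM in ABpIF/+ (median 2229), and was 1112, 559 and 477 CPM in ABpIF/F. All 3 ABpIF/F mice were below all ABpIF/+ mice, whereas each Braf group overlapped Ctrl, in ABpIF/F through replicate 1. Apoa5 was 3.25-fold higher in ABpIF/+ than in ABpIF/F (log2 fold change 1.70 ± 0.28 SE, edgeR adjusted p = 1.71e-04), and when any 1 mouse was left out this value stayed between 1.48 and 2.17. Against Ctrl it was 1.78-fold higher in ABpIF/+ (0.83 ± 0.211, edgeR adjusted p = 0.00442), and -0.87 ± 0.267 in ABpIF/F did not pass (adjusted p = 0.0261). The ABpIF/+ call was lost without Ctrl replicate 3 (0.75, edgeR adjusted p = 0.0146), 4 (0.78, 0.0136), 5 (0.82, 0.0111) or 6 (0.84, 0.01), and without ABpIF/+ replicate 1 (0.75, 0.0148) or 4 (0.78, 0.0145), and when libraries were scaled by total counts (0.66, 0.0107). It was 0.29 against Ctrl replicate 2 alone (edgeR adjusted p = 0.985). The ABpIF/F value passed without ABpIF/F replicate 1 (-1.34, edgeR adjusted p = 0.00104). With the clock score as a covariate the values were 0.83 for ABpIF/+ against Ctrl (edgeR adjusted p = 0.00648) and 1.66 between the Braf groups (adjusted p = 0.00499). The 2 Braf groups did not overlap in clock score, so that fit cannot fully separate score from group.

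Apoe, the ligand of remnant receptors, was the most abundant of the 10 in Ctrl by CPM and did not pass in any comparison. It ranged from 14322 to 23966 CPM in Ctrl (median 14881) and from 17764 to 26432.5 CPM in ABpIF/+ (median 20388), and was 20449, 15870 and 12995 CPM in ABpIF/F. Ctrl replicates 1 and 2, at 21147 and 23966 CPM, lay within the ABpIF/+ range and the other 4 Ctrl mice (14322 to 15136 CPM) below it. The log2 fold change was 0.27 ± 0.18 SE in ABpIF/+ (edgeR adjusted p = 0.343), -0.07 ± 0.222 in ABpIF/F (adjusted p = 1) and 0.34 ± 0.224 between them (adjusted p = 0.378). Without Ctrl replicates 1 and 2 the ABpIF/+ value was 0.51 (edgeR adjusted p = 0.0362).

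Within groups, several members moved together with the length slope of the library. The slope was below 0 in 7 libraries and above 0 in 8. Apoc3 was above its group mean in 7 of the 7 and below it in 8 of the 8, and Apoe and Apoa2 were above in 6 of the 7 and below in 8 of the 8. Apoa5, with the longest exons but those of Apob, was above in 6 of the 7 and below in 7 of the 8, so that the members did not order by length. Apob showed the opposite order, below its group mean in 5 of the 7 and above it in 7 of the 8. Apom (above in 4, below in 6) and Apoc2 (above in 6, below in 5) followed the slope less closely, and Apoa4 was above its mean in 2 of the 7 and in 5 of the 8. What moved the slope was not tested. A per-library offset for the length trend was added after seeing the data. Unlike the slope, the offset was taken relative to the mean of all mice, so it also removed length trends that differed between groups. It left the calls of Apoa1, Apoc2, Apoa4 and Apom against Ctrl in both Braf groups. With it Apoa2 became a call as lower in ABpIF/+ (-0.77, edgeR adjusted p = 6.13e-05) and was -0.72 in ABpIF/F (adjusted p = 0.00203).

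**Figure D3:**
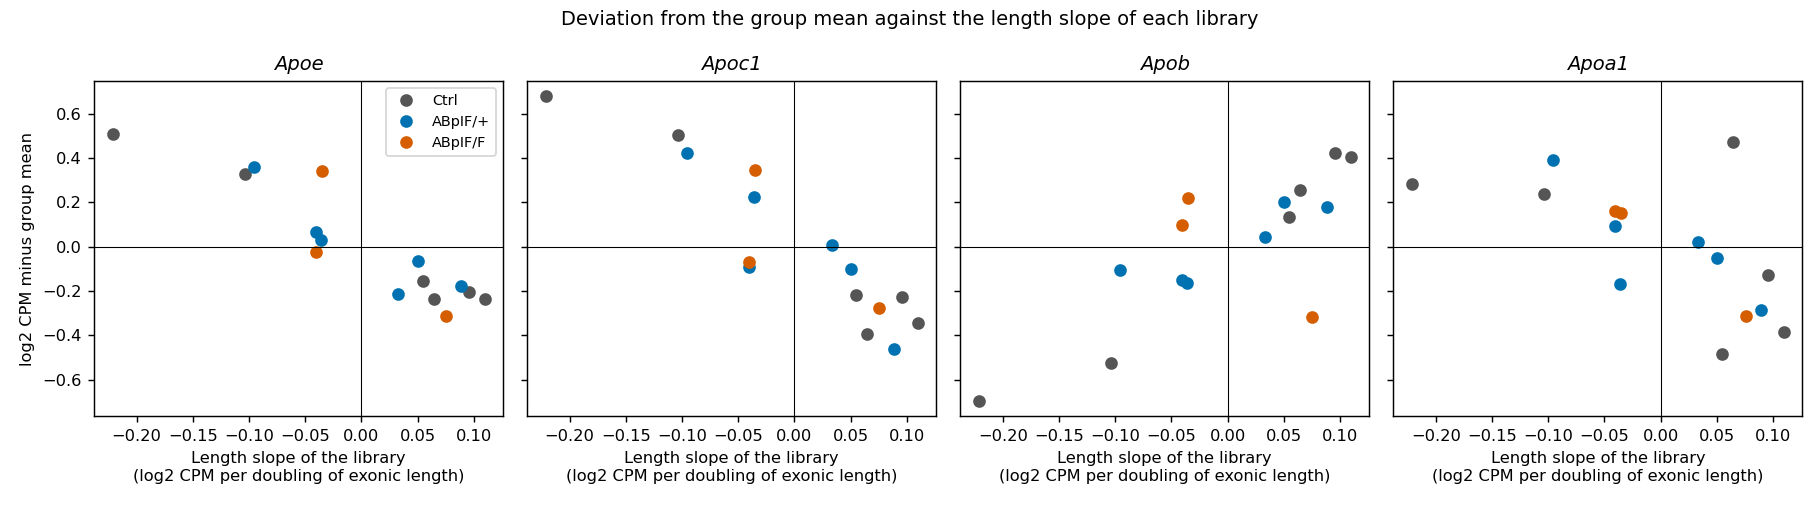
Deviation of each gene's log2 CPM from its group mean (vertical axis) against the length slope of the library (horizontal axis, log2 CPM per doubling of exonic length, relative to the group mean), 1 point per mouse. Apoe points fall from upper left to lower right and Apob points rise, with Ctrl replicate 2 at the far left (-0.22).

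Apoa1 took a larger part of the apolipoprotein transcript pool in both Braf groups. The 10 genes together took 3.51 to 4.86% of all counts in Ctrl (mean 4.05 ± 0.63% SD, n = 6), 4.97 to 6.66% in ABpIF/+ (5.83 ± 0.566%, n = 6) and 4.55 to 5.60% in ABpIF/F (4.92 ± 0.588%, n = 3). ABpIF/+ mice were all above Ctrl mice, while ABpIF/F mice overlapped both groups. Of these pooled counts Apoa1 made up 12.1 to 21.5% in Ctrl, 38.7 to 45.4% in ABpIF/+ and 36.1 to 41.6% in ABpIF/F. Apoe made up 39.4 to 48.4%, 29.9 to 34.6% and 32.4 to 36.5%, and was the largest part in every Ctrl mouse, where Apoa1 was the largest in every ABpIF/+ mouse. Apoa2 made up 11.4 to 17.2% in Ctrl, 4.48 to 6.56% in ABpIF/+ and 4.18 to 5.86% in ABpIF/F. Apoc2 was at most 0.394% of the pool in Ctrl and at least 0.744% in ABpIF/+ and 1.06% in ABpIF/F. Shares are of raw counts, so a long gene such as Apob weighs more than its number of transcripts, and a share of the pool falls when Apoa1 rises even where the gene itself does not change.

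**Figure D4:**
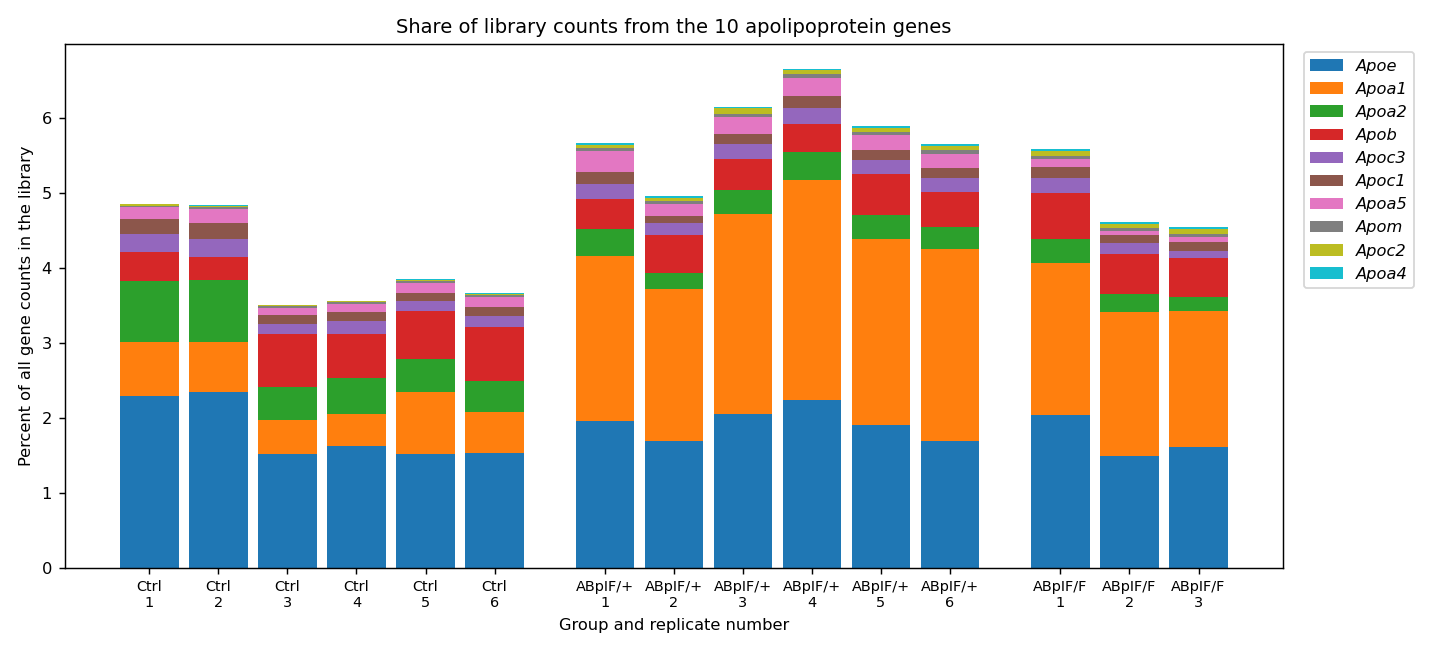
Percent of all gene counts taken by the apolipoprotein genes in each mouse, stacked by gene. Apoa1 takes 0.431 to 0.828% of all counts in Ctrl, 2.02 to 2.94% in ABpIF/+ and 1.81 to 2.02% in ABpIF/F, and the whole stack reaches at least 4.97% in every ABpIF/+ mouse.

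Ratios of 2 members within a library do not depend on how libraries are scaled, but they can still vary with the length slope of the library. 3 ratios were compared in 3 comparisons with two-sided exact permutation tests, and p-values were adjusted by Benjamini-Hochberg over the 9 tests with a threshold of 0.05. The Apoa1 to Apob ratio of counts, which sets the main HDL protein against the VLDL protein, was 0.645 to 2.201 in Ctrl, 3.96 to 7.72 in ABpIF/+ and 3.30, 3.62 and 3.47 in ABpIF/F. No 2 groups overlapped. On the log2 scale the mean was 0.16 ± 0.762 (SD, n = 6) in Ctrl and 2.45 ± 0.344 (n = 6) in ABpIF/+, a difference of 2.29 (exact permutation p = 0.002165, the smallest possible, adjusted p = 0.0195). In ABpIF/F the mean was 1.79 ± 0.0677 (n = 3), 1.63 above Ctrl and 0.66 below ABpIF/+, where the exact permutation p was 0.0238 in each case, the smallest that 3 against 6 mice can give, and the adjusted p was 0.0714.

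The other ratios compare neighbours within a gene cluster. Apoa4 to Apoa1, on chromosome 9, had a mean log2 ratio of -6.07 ± 0.531 in Ctrl, -6.84 ± 0.673 in ABpIF/+ and -6.13 ± 0.338 in ABpIF/F. The groups overlapped, and the differences of -0.77 (ABpIF/+ against Ctrl), -0.06 (ABpIF/F against Ctrl) and -0.71 (ABpIF/+ against ABpIF/F) had exact permutation adjusted p-values of 0.117, 0.881 and 0.214. Apoe to Apoc1, on chromosome 7, was the steadiest of the 3 ratios at 3.64 ± 0.143 in Ctrl, 3.82 ± 0.201 in ABpIF/+ and 3.79 ± 0.0398 in ABpIF/F. Its differences of 0.18, 0.15 and 0.03, in the same order, had exact permutation adjusted p-values of 0.172, 0.171 and 0.881.

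**Figure D5:**
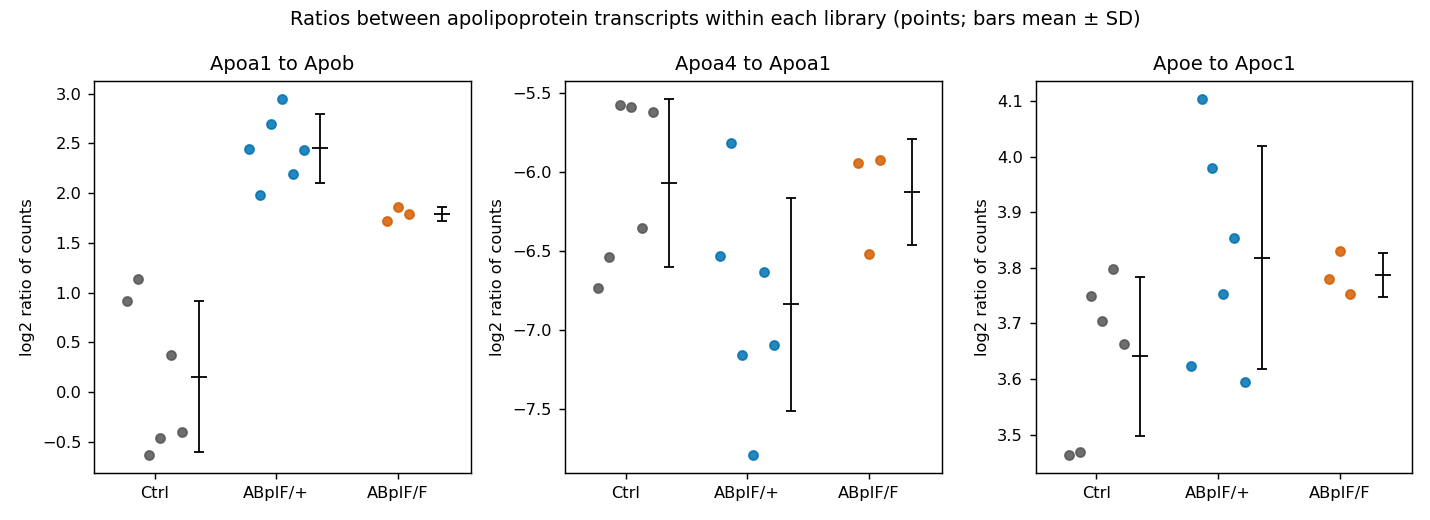
Log2 ratio of counts of Apoa1 to Apob, Apoa4 to Apoa1 and Apoe to Apoc1 in each mouse, with group means and SD. The Apoa1 to Apob ratio separates the 3 groups (means 0.16, 2.45 and 1.79), while the ranges of the other ratios overlap.

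Genes near the members did not all follow them. Beside the counts of neighbours, 12.3% of all genes were higher and 12.2% lower in ABpIF/+, and 8.22% and 6.37% in ABpIF/F. On chromosome 9, 3 other genes within 100 kb of a member averaged 1 CPM or more, and all 3 rose in ABpIF/+. Zpr1, which lies beside Apoa5, had the same order of groups as Apoa5. Its log2 fold change was 1.40 in ABpIF/+ against Ctrl (edgeR adjusted p = 8.46e-05), -0.93 in ABpIF/F (adjusted p = 0.0255) and 2.33 between the Braf groups (adjusted p = 3.79e-05). Sik3 and Bud13 rose by 0.45 and 1.102 in ABpIF/+. Of 9 neighbours on chromosome 7, 4 were higher in ABpIF/+ and 2 in ABpIF/F and none was lower, and Apoc4, which adjoins Apoc2, was at -0.04 (edgeR adjusted p = 1) and -0.59 (adjusted p = 0.0547) where Apoc2 rose. Of 11 neighbours of Apoa2, 1 was higher and 3 lower in ABpIF/+, and 4 were lower in ABpIF/F, among them Tomm40l (-1.98, edgeR adjusted p = 1.75e-06). Of 13 neighbours of Apom, 1 was higher and 2 lower in ABpIF/+ and 1 was higher in ABpIF/F.

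The genes whose log2 CPM over the 15 mice was most like that of 4 members were sought among the 9531 genes that averaged 5 CPM or more. For Apoa1 these were Smoc2 (Pearson r = 0.980), Serpina1a (0.980) and Gstp1 (0.977). For Apoa4 they included Rbfox2 (0.956) and Agbl5 (0.943). They were for Apob Masp1 (0.936), F5 (0.916) and Socs4 (0.914), and for Apoe Akr7a5 (0.952), Crb3 (0.942) and Tmed1 (0.937). Serpina1a and Gstp1 have near-identical copies, which makes their counts uncertain. The 15 points share group means and the length slope of their libraries, and the values are descriptions.

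Genes that act on the same particles were read from lists. Over all genes with a read, 12.3% were higher and 12.2% lower in ABpIF/+, and 8.22% and 6.37% in ABpIF/F. Between the Braf groups 5.60% were higher and 9.00% lower in ABpIF/+. These shares stand beside the counts of every list below. Lipases of plasma and their regulators changed in both directions. Lpl, the lipase that Apoc2 activates, rose in both Braf groups, from 13.1 CPM in Ctrl to 441 CPM in ABpIF/+ (log2 fold change 5.07 ± 0.244 SE, edgeR adjusted p = 8.97e-12) and 355 CPM in ABpIF/F (4.76 ± 0.255, adjusted p = 1.35e-10). Angptl8, a regulator of lipoprotein lipase, rose by 2.19 and 2.40 on the log2 scale. Endothelial lipase (Lipg), which acts on HDL, fell in both (-4.45 and -3.97), as did hepatic lipase (Lipc, -2.73 and -2.21). Of the 8 genes 2 were higher and 2 lower in ABpIF/+, 2 higher and 3 lower in ABpIF/F, and none passed between the Braf groups at an edgeR adjusted p under 0.01. The median log2 fold changes were -0.03, -0.14 and -0.05 in the order of the 3 comparisons, against 0, 0.09 and -0.05 over all genes.

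Genes of HDL formation and remodelling changed as well. Of 8 genes 1 was higher and 4 lower in ABpIF/+ (median -0.84) and 1 higher and 5 lower in ABpIF/F (median -0.61), beside medians of 0 and 0.09 and shares of 12.2% and 6.37% lower over all genes, and of 27.5% and 31.4% lower over the abundant genes. Pltp, the phospholipid transfer protein, fell from 62.7 CPM in Ctrl to 8.56 CPM in ABpIF/+ and 15.7 CPM in ABpIF/F, and the HDL-bound esterase Pon1 fell in both (log2 fold changes -2.06 and -1.70). Pdzk1, an adaptor of the HDL receptor, fell likewise (-1.29 and -0.86), whereas the HDL receptor Scarb1 rose in both (0.73 and 1.27). Between the Braf groups 0 of 8 were higher and 2 lower in ABpIF/+, the cholesterol exporter Abcg1 (-1.08) and Pon3 (-0.70).

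None of 17 other apolipoprotein genes passed the threshold as higher in ABpIF/+. 7 were lower there. Those with a mean of at least 1 CPM in a group were Apol9b at -1.68, Apon at -1.58, Apol9a at -1.53, Apol7a at -1.49 and Saa4 at -1.31. The other 2, Apol7c and Apol10b, were called on means of 0.368 and 0.161 CPM in Ctrl. The median of the list, -1.21, is the value of Apod, which had a mean of 0.00518 CPM in Ctrl and 0 in ABpIF/+, and says little. In ABpIF/F 2 were higher, Clu (1.69), which encodes clusterin, and Apol10b (3.25, from 0.161 to 1.55 CPM), and 2 were lower, Apol7a (-1.71) and Apol9b (-0.61), with a median of -0.09. Between the Braf groups 0 were higher and 6 lower in ABpIF/+, among them Apon (-1.52) and Clu (-1.25). Apol7 and Apol9 genes have near-identical copies between which reads can be split, so their values are uncertain.

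Assembly and secretion genes and receptors changed in few members. Of 11 genes of lipoprotein assembly and secretion 2 were lower in ABpIF/+, A1cf (-1.33), a cofactor of Apob mRNA editing, and Cideb (-0.96), which acts in VLDL lipidation. In ABpIF/F the editing enzyme Apobec1 rose (0.88), Sar1b (-0.86) and Cideb (-0.64) fell, and between the Braf groups Apobec1 (-1.43) and Sort1 (-1.03) were lower in ABpIF/+. Of 9 receptor genes and regulators 2 were higher and 2 lower in ABpIF/+, 1 higher and 0 lower in ABpIF/F, and 1 higher and 1 lower in ABpIF/+ than in ABpIF/F. The lower genes in ABpIF/+ were the remnant receptor Lrp1 (-1.07) and Lsr (-0.43), a receptor for triglyceride-rich particles, and Lsr was also the gene lower in ABpIF/+ than in ABpIF/F (-0.50).

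Of 18 transcription regulators of apolipoprotein genes 3 were higher and 4 lower in ABpIF/+ (median -0.39) and 0 higher and 3 lower in ABpIF/F (median -0.21). Among the 1221 abundant genes 20.3% were higher and 27.5% lower in ABpIF/+ (median -0.11), and 7.21% and 31.4% in ABpIF/F (median -0.34). Between the Braf groups 22.5% of these abundant genes were higher and 5.24% lower in ABpIF/+ (median 0.23). The coactivator Ppargc1a rose by 1.43 in ABpIF/+, and Creb3l3, a hepatic regulator of triglyceride genes, fell in ABpIF/+ (-1.13) and in ABpIF/F (-1.07). In ABpIF/+ the repressor Nr0b2 (-1.11) and the glucose-responsive factor Mlxipl (-1.04) fell. In ABpIF/F the fatty acid sensor Ppara (-1.66) and the bile acid receptor Nr1h4 (-0.78) fell. Between the Braf groups 3 were higher and 0 lower in ABpIF/+: Ppargc1a by 1.36, Ppara by 1.06 and Hnf4a by 0.73, the last a main hepatocyte factor at a mean of 848 CPM in ABpIF/+ and 513 CPM in ABpIF/F (edgeR adjusted p = 0.00526).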

How the data were processed

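RNA-seq of liver was deposited as a table of raw counts per gene. Per the labels and the methods of the study, the authors prepared libraries with a stranded mRNA kit, used HISAT2 (version 2.21 in the submitters' processing notes) for alignment to the mm10 genome, and took gene counts from featureCounts (2.0.8). The annotation and strand setting are not given in the sources used here. The 23 samples name 15 mice, 8 of them named by 2 samples, and the table has 1 column per mouse, used as the replicate. A second deposited table held the same counts in 10 matched columns (0 values differed), and its other 5 columns carry no sample name and were not used. No file of fold changes was used.

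Mice were grouped by genotype label. All 27179 genes of the 3 groups entered 1 robust quasi-likelihood fit without covariates (edgeR 4.0.16 in the form of edgeR 3, TMM, R 4.3.3), with Benjamini-Hochberg adjustment over the whole table. 1319 genes without a symbol stayed in the fit. Calls needed an adjusted p under 0.01, or also a log2 fold change of at least 1 in size. Genes with no read are untestable, so shares are over 20380 genes. Log2 CPM values use a prior count of 2, and fold changes use the default of the fit. The p-values test differences between groups against the spread between mice. With Ctrl replicate 2 as the only control, that spread came from the Braf groups alone. Against Ctrl they cannot separate genotype from the strain label, since the 2 are largely shared. Ratios used exact permutation tests (scipy 1.17.1). The edgeR fit was also run on simulated counts with known changes. These held no differences in length slope, strain label or clock score, and the ratio tests were not simulated.

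Members and gene lists were chosen with earlier results of these data known. All members were named, and of each list up to 4 genes per comparison past the threshold with the largest fold change and a mean of at least 1 CPM in a group, genes within 100 kb, and for 4 members the 3 genes of most similar level. Some genes that this rule selects are not reported here. Tomm40l and Apoc4 were singled out among the neighbours after their values were seen. For ABpIF/+ against Ctrl, Saa4, Apol7c, Apol10b and Apod were named outside this rule. The list of 16 clock genes (15 found) gave 3 higher and 0 lower in ABpIF/+, 0 higher and 4 lower in ABpIF/F, and 5 higher and 2 lower between the Braf groups. Alternatives were DESeq2 1.42.0, other size factors, low-count filters, fits of 2 groups, a clock covariate, Ctrl replicate 2 as the only control, each mouse left out, and 3 chosen after seeing the data.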

Additional observations from a re-analysis of the deposited data

Results flagged for a closer look

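The log2 fold change of Apoa5 between ABpIF/+ and ABpIF/F, 1.70 (edgeR adjusted p = 1.71e-04), stood out because the effects of the Braf groups relative to Ctrl differed in a direct test, at 0.83 in ABpIF/+ and -0.87 in ABpIF/F. All 6 ABpIF/+ mice were above all 3 ABpIF/F mice. ABpIF/F mice also had clock scores of -0.81, -3.33 and -1.52 against 0.08 to 1.12 in ABpIF/+, and with that score as a covariate the difference was 1.66 (edgeR adjusted p = 0.00499). Since these scores did not overlap, the fit with the covariate cannot fully separate score from group. No mouse lay beyond Dixon's critical value of 0.625 in any of the 20 groups of 6 mice tested (10 genes in Ctrl and ABpIF/+), a test that marks about 1 group in 20 by chance.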

How the results depend on the processing

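No paired analysis was possible because replicate numbers only name mice and the trailing numbers of sample titles mark repeat samples of 1 mouse. The second count table was not run as an alternative, since 5 of its columns carry no sample name. The main limits are 3 ABpIF/F mice, 1 control with the strain label of the Braf groups, and a length slope that differed between libraries. Of the values of single genes over all alternatives, 576 kept direction and side of the threshold, 21 lost and 6 gained a call and 37 reversed, and of the counts and ratios 223 kept, 4 moved and 6 reversed. Ctrl replicate 2 as the only control leaves the spread of controls unmeasured, and its library had the lowest length slope (-0.22). Against it alone the ABpIF/+ values reversed to 0.65 for Apob, -0.54 for Apoc1, -0.29 for Apoc3 and -0.20 for Apoe. With total counts in place of TMM, which shifts the median of genes of at least 1 CPM by -0.177 in ABpIF/+ against Ctrl and -0.19 between the Braf groups, Apoc1 in ABpIF/+ was -0.10, Apob in ABpIF/F -3.70e-04 and Apoc2 between the Braf groups -0.082. With a filter on low counts Apob in ABpIF/F was -0.030. Without Ctrl replicates 1 and 2, ABpIF/F values were -0.23 for Apob, 0.11 for Apoc1, 0.080 for Apoc3 and 0.17 for Apoe. Without ABpIF/F replicate 3 as well they were -0.089, 0.24, 0.39 and 0.31, and Apoc2 between the Braf groups was -0.016. With the length offset Apoc1 in ABpIF/+ was -2.00e-04, ABpIF/F values were 0.14 for Apoc1, 0.069 for Apoc3 and 0.11 for Apoe, and values between the Braf groups were -0.046 for Apoa2, -0.14 for Apoc1, -0.35 for Apoc2 and -0.19 for Apom. None of these values was past the threshold with the reported settings, and the cause was not tested. With each mouse left out in turn, members past the threshold numbered 4 to 5 in ABpIF/+ (3 to 4 with the 2-fold limit), 4 to 6 in ABpIF/F (3 to 5) and 1 between the Braf groups. Values that changed sign ranged from -0.31 to 0.060 (Apoa4 between the Braf groups), -0.10 to 0.16 (Apob in ABpIF/F), -0.018 to 0.23 (Apoc1 in ABpIF/+), -0.016 to 0.17 (Apoc2 between the Braf groups), -0.51 to 0.080 (Apoc3 in ABpIF/F) and -0.26 to 0.074 (Apoe in ABpIF/F), and for log2 ratios from -0.19 to 0.14 (Apoa4 to Apoa1, ABpIF/F against Ctrl) and -0.026 to 0.075 (Apoe to Apoc1 between the Braf groups).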
